A study of Mus musculus with 8 samples.

Results

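Tenascins are large glycoproteins of the extracellular matrix, and 10 genes that encode their binding partners on neurons and glia, or proteins of the same signalling route, were followed here. They were the rows of the gene table named Cntn1, Ptprz1, Nfasc, Nrcam, Ncam1, L1cam, Ptn, Mdk, Anxa2 and Egfr, chosen by symbol for their known relation to tenascin-R and tenascin-C and not by their values. All 10 were found among the 18058 genes of the table, and all 10 passed the filter of a mean of at least 10 normalized counts, which 17636 genes passed. A normalized count is an estimated read count divided by the factor that puts the libraries on one scale.

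Total RNA of retinae from adult mice was sequenced, with 4 libraries of wildtype (WT) retinae and 4 libraries of quadruple knockout (quadruple KO) retinae, named A to D. The series counts 4 mice per genotype, and its methods say that retinae were pooled for RNA extraction without saying whether within or across animals, so p-values measure the spread between these libraries. The quadruple KO mice lacked Bcan, Ncan, Tnc and Tnr, which encode brevican, neurocan, tenascin-C and tenascin-R. They came from crosses of the single knockout lines, and the WT mice were of the inbred background strain of the knockout lines. The age in weeks and the sex of the mice behind each library are not given in the sources used here.

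Tenascin-R and tenascin-C carry fibronectin type III and epidermal growth factor-like repeats through which they bind cell surface proteins. Contactin-1 and neurofascin are neuronal members of the immunoglobulin superfamily that bind tenascin-R, and the receptor phosphatase Ptprz1, whose ectodomain is also released as the proteoglycan phosphacan, binds both tenascins and several adhesion molecules. Pleiotrophin and midkine are small heparin-binding growth factors that are ligands of Ptprz1, annexin A2 is a receptor of tenascin-C, and the epidermal growth factor receptor is activated by repeats of tenascin-C.

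The libraries were compared with their labels first. Ncan ranged from 569 to 789 normalized counts in WT and from 0 to 0.853 in quadruple KO, and Bcan from 197 to 327 and from 11.5 to 22.1. Tnr ranged from 5578 to 6317 in WT and from 2374 to 2580 in quadruple KO. Tnc ranged from 881 to 1592 and from 1024 to 1249, so that the targeted gene Tnc overlapped between genotypes at the level of RNA. The authors reported that each targeted allele had lost a stretch of its WT sequence. By western blot they did not detect the encoded proteins in postnatal quadruple KO retinae. Libraries WT B and WT C stood apart from the other 6. Messenger RNA of the mitochondrial genome made up 0.402% and 0.341% of their normalized counts against 1.28% to 1.64% in the others, and RNA of the signal recognition particle made up 19.3% and 14.8% against 6.82% to 8.69%. The first principal component, with 50.9% of the variance, placed WT B at 71.9 and WT C at 69.3 and the others between -30.2 and -11.0. The sums of normalized counts were 36134196 to 42201667 per library, and the read depth is unknown. The fold changes and list medians below are therefore also given from a second fit that leaves out WT B and WT C, a choice made on the values and no group of the study.

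No member was called different between the genotypes. The test was limma on log2(normalized count + 1) over all genes tested, with Benjamini-Hochberg adjustment, at an adjusted p under 0.05, and 77 of 17636 genes passed it, which is 0.437%. In the fit without WT B and WT C, 0 of the 10 members passed and 93 genes did, or 0.527%. The adjusted p of the members ran from 0.3 to 0.98 in the first fit and was at least 0.36 in the second. At an unadjusted p under 0.05 stood 1 of 10 members, Nfasc, where 16.6% of all genes did, and 2 of 10 members with WT A and WT D only, Nrcam and L1cam, where 11.6% did. No member had genotypes without overlap, which 9.74% of all genes tested had. The median log2 fold change of the members was -0.04, with 5 higher and 5 lower in quadruple KO and a median absolute value of 0.19, and over all genes tested these medians were 0.00 and 0.19. With WT A and WT D only, the median absolute value fell to 0.02 for the members and 0.10 for all genes tested. In a tissue such as whole retina, fewer cells of a type and less RNA per cell cannot be told apart, and gene-level values do not separate isoforms.

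**Figure D1:**
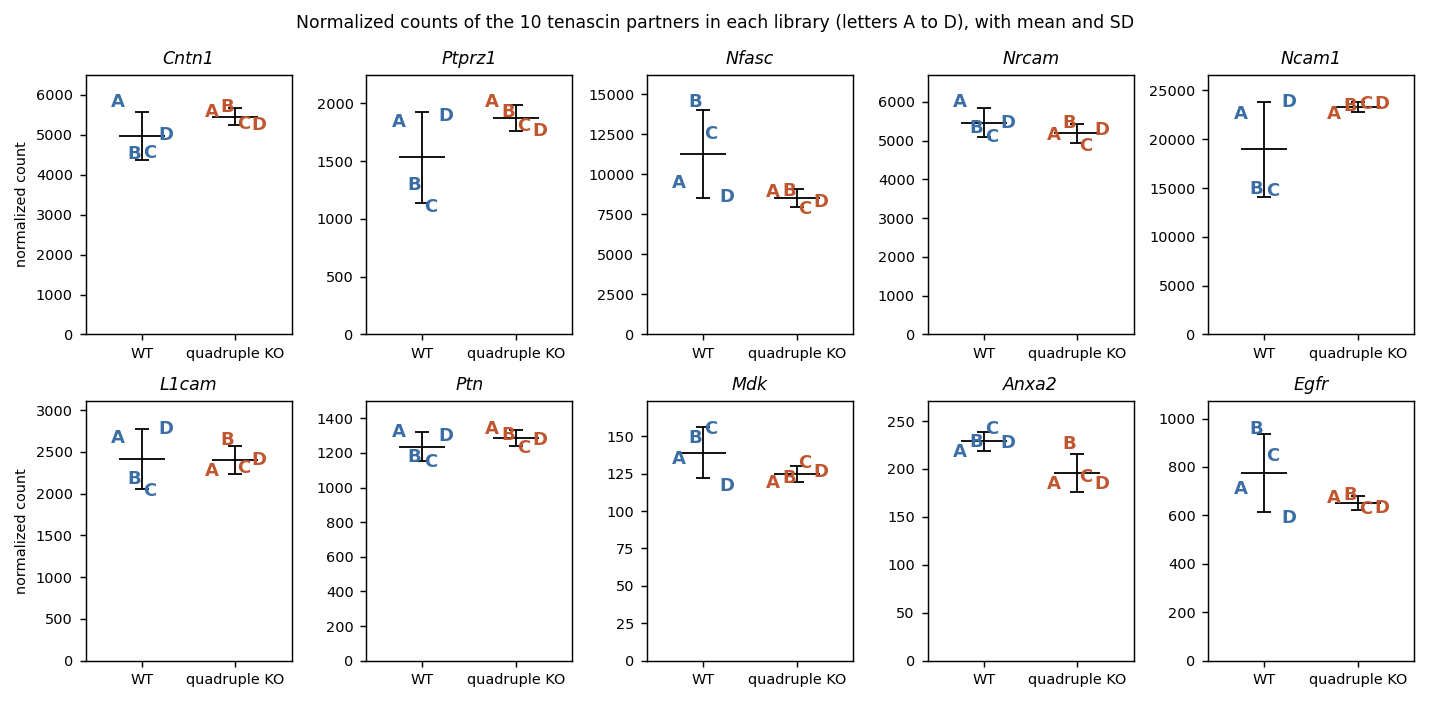
Normalized counts (y axis, from 0) of each member in the 4 WT (blue letters) and 4 quadruple KO (orange letters) libraries, with the group mean as a bar and the SD as whiskers. In Ncam1, WT B and WT C sit at 14868 and 14684, and the other 6 libraries lie between 22547 and 23772.

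The neuronal receptors of tenascin-R were taken first. Cntn1 encodes contactin-1, an adhesion molecule held in the membrane by a glycosylphosphatidylinositol anchor (ENSMUSG00000055022.15, chromosome 15, 91948938 to 92240393, plus strand, GRCm39). Its normalized count was 5808, 4514, 4544 and 4999 in WT A to D and 5572, 5691, 5277 and 5251 in quadruple KO A to D. The genotypes overlapped, with WT A the highest of all 8 libraries and WT B and WT C the lowest. The means were 4966 ± 603 in WT and 5448 ± 218 in quadruple KO (SD, n = 4 per genotype), a log2 fold change of 0.14 (SE 0.09, 95% confidence interval -0.06 to 0.34, limma adjusted p = 0.37). Against WT A and WT D only, the log2 fold change was 0.02 (limma adjusted p = 0.95).

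Nfasc encodes neurofascin, which gathers sodium channels at the axon initial segment and the node of Ranvier and, as another isoform, joins glia to the axon beside the node (ENSMUSG00000026442.15, chromosome 1, 132492428 to 132669564, minus strand). It is the only member on the chromosome of a targeted gene, 26.7 Mb from Tnr. Its normalized count was 9434, 14499, 12506 and 8596 in WT A to D and 8926, 8983, 7836 and 8300 in quadruple KO. WT B and WT C were the highest libraries, and WT D lay within the range of the quadruple KO. The means were 11259 ± 2740 in WT and 8511 ± 546 in quadruple KO (SD, n = 4 per genotype). This was a log2 fold change of -0.37 (SE 0.16, 95% confidence interval -0.72 to -0.02), the largest in size among the members, with an unadjusted p of 0.039 and a limma adjusted p of 0.3. In the two-sided exact permutation test of the means over the 70 regroupings, p was 0.0857, and 0.0286 is the smallest that this design allows. Against WT A and WT D only, the log2 fold change was -0.08 (95% confidence interval -0.24 to 0.07, limma adjusted p = 0.66).

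Nrcam encodes a relative of neurofascin that also binds ankyrin, contactins and Ptprz1 (ENSMUSG00000020598.17, chromosome 12, 44375287 to 44651976, plus strand). The normalized count of Nrcam was 5989, 5335, 5105 and 5448 in WT A to D and 5154, 5449, 4861 and 5284 in quadruple KO. The genotypes overlapped, with WT A the highest library and KO C the lowest. The log2 fold change was -0.08 (SE 0.07, 95% confidence interval -0.24 to 0.09, limma adjusted p = 0.53), between means of 5469 ± 375 and 5187 ± 249 (SD, n = 4 per genotype). Without WT B and WT C it was -0.14, with an unadjusted p of 0.045 and a limma adjusted p of 0.42.

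The neural cell adhesion molecules NCAM and L1 bind each other's family members, heparan sulphate and phosphacan. Ncam1 (ENSMUSG00000039542.17, chromosome 9, 49413436 to 49710357, minus strand) stood at 22547, 14868, 14684 and 23772 normalized counts in WT A to D and at 22630, 23360, 23632 and 23595 in quadruple KO. WT A and WT D bracketed the 4 quadruple KO libraries, which had a coefficient of variation of 2.0%, and WT B and WT C lay far below all others. The WT mean was 18968 ± 4870 and the quadruple KO mean 23304 ± 466 (SD, n = 4 per genotype), a log2 fold change of 0.33 (SE 0.16, 95% confidence interval -0.03 to 0.70, limma adjusted p = 0.31). Against WT A and WT D only, the log2 fold change was 0.01 with a 95% confidence interval of -0.09 to 0.11, the narrowest among the members in that fit.

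L1cam (ENSMUSG00000031391.19, chromosome X, 72897378 to 72939711, minus strand) stood at 2671, 2176, 2035 and 2778 in WT A to D and at 2269, 2646, 2310 and 2398 in quadruple KO. The quadruple KO libraries lay between the lower pair, WT B and WT C, and the higher pair, WT A and WT D. The means were 2415 ± 364 in WT and 2406 ± 169 in quadruple KO (SD, n = 4 per genotype). The log2 fold change was 0.00 (SE 0.11, 95% confidence interval -0.25 to 0.26, limma adjusted p = 0.98). With WT A and WT D only it was -0.18 (SE 0.07, 95% confidence interval -0.33 to -0.03), with an unadjusted p of 0.025 and a limma adjusted p of 0.36, so the direction rested on the choice of WT libraries. L1cam is X-linked, and it is the only member that overlaps another gene of the table on the same strand, Arhgap4, so some reads may be shared. The Y-linked genes Ddx3y, Eif2s3y, Kdm5d and Uty were detected in all 8 libraries. Their summed counts were 6896 and 6806 in WT A and WT D, 4873 and 4767 in WT B and WT C, and 6647 to 7084 in quadruple KO. The sex-linked gene Xist was looked for and was not in the table.

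Ptprz1 is the receptor on which several of these proteins meet. It is made by glia and their precursors in the central nervous system, and its phosphatase is inhibited when pleiotrophin binds (ENSMUSG00000068748.8, chromosome 6, 22875358 to 23054236, plus strand). Its normalized count was 1842, 1294, 1102 and 1892 in WT A to D and 2009, 1923, 1803 and 1761 in quadruple KO. The WT libraries fell into a low pair, WT B and WT C, and a high pair that lay within the range of the quadruple KO. The means were 1532 ± 395 in WT and 1874 ± 113 in quadruple KO (SD, n = 4 per genotype). This was a log2 fold change of 0.33 (SE 0.17, 95% confidence interval -0.05 to 0.71, limma adjusted p = 0.32). Against WT A and WT D only it was 0.00 (95% confidence interval -0.14 to 0.15, limma adjusted p = 0.99).

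Its ligand Ptn, pleiotrophin, lies on the same chromosome (ENSMUSG00000029838.12, chromosome 6, 36680960 to 36796991, minus strand). The libraries held 1320, 1178, 1150 and 1298 normalized counts in WT A to D and 1340, 1306, 1228 and 1275 in quadruple KO. WT B and WT C were again the lowest libraries, by a smaller margin than in Ptprz1. The log2 fold change was 0.06 (SE 0.07, 95% confidence interval -0.11 to 0.23, limma adjusted p = 0.64), between means of 1237 ± 84.8 and 1287 ± 47.5 (SD, n = 4 per genotype). Without WT B and WT C it was -0.02 (limma adjusted p = 0.89).

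The second ligand, Mdk, encodes midkine and spans 2.7 kb (ENSMUSG00000027239.15, chromosome 2, 91760143 to 91762846, minus strand). The normalized count of Mdk was 135, 149, 155 and 117 in WT A to D and 119, 122, 132 and 126 in quadruple KO. WT B and WT C were the highest and WT D the lowest of all libraries. The log2 fold change was -0.15 (SE 0.12, 95% confidence interval -0.43 to 0.13, limma adjusted p = 0.47), between means of 139 ± 16.8 and 125 ± 5.37 (SD, n = 4 per genotype), and -0.02 with WT A and WT D only (limma adjusted p = 0.97). Per kb of exon, Ptn exceeded Mdk in each library, by a ratio between 1.66 in WT C and 2.51 in KO A. Per kb of coding sequence the ratio was 6.18 to 9.35, since most of the exonic sequence of Ptn is not coding.

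The counts of the ligand Ptn and its receptor Ptprz1 were lowest in WT B and WT C, as were those of Cntn1, Ncam1 and L1cam. The promoter windows of this ligand and receptor are shown here. They run from 250 bases before to 50 bases after the start of the RefSeq gene model in GRCm38.p6, a build older than that of the gene positions above, and capitals mark matches to the GC box (GGGCGG) or the CCAAT box (CCAAT) on either strand. Of the 10 members 8 had an entry, with 12 windows.
Ptprz1, chr6:22875252-22875551, plus strand: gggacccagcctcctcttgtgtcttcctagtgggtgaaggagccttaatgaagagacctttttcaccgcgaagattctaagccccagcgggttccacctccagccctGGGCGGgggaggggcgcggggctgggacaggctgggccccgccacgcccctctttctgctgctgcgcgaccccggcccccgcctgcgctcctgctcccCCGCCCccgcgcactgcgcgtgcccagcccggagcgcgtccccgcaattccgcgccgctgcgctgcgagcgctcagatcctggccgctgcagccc
Ptn, chr6:36810130-36810429, minus strand: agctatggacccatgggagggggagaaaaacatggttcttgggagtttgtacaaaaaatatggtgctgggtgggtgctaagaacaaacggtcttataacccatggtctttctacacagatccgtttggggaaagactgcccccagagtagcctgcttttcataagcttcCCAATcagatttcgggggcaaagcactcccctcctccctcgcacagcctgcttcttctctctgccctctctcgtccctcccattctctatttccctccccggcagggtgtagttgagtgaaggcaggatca
The window of Ptprz1 had a GC content of 71.7% and 2 GC boxes, and that of Ptn had a GC content of 52.0% and 1 CCAAT box. Neither held the TATA box (TATAAA). Over 32851 windows of this length the median GC content was 52.7%, 35.7% held a GC box, 37.4% a CCAAT box and 13.6% a TATA box. A match describes the letters only.

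The receptors of tenascin-C closed the set. Anxa2 encodes annexin A2, a calcium-dependent membrane-binding protein that forms a complex with S100a10 (ENSMUSG00000032231.15, chromosome 9, 69360542 to 69399077, plus strand). The normalized count of Anxa2 was 218, 228, 242 and 227 in WT A to D and 184, 226, 192 and 184 in quadruple KO. KO A, KO C and KO D lay below the WT range and KO B lay within it. The means were 229 ± 9.89 in WT and 196 ± 20.1 in quadruple KO (SD, n = 4 per genotype), a log2 fold change of -0.22 (SE 0.11, 95% confidence interval -0.46 to 0.01, limma adjusted p = 0.3, two-sided exact permutation p = 0.0571). Without WT B and WT C it was -0.18 (95% confidence interval -0.45 to 0.08, limma adjusted p = 0.57). Anxa2 is the only member whose quadruple KO libraries varied more than its WT libraries, with coefficients of variation of 10.3% and 4.32%.

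Egfr encodes the epidermal growth factor receptor (ENSMUSG00000020122.17, chromosome 11, 16702198 to 16868158, plus strand). The libraries held 707, 958, 847 and 589 normalized counts in WT A to D and 673, 683, 626 and 631 in quadruple KO. WT B and WT C were the highest libraries, while WT A and WT D lay on either side of the quadruple KO libraries. The means were 775 ± 161 and 653 ± 29.1 (SD, n = 4 per genotype), a log2 fold change of -0.22 (SE 0.14, 95% confidence interval -0.54 to 0.09, limma adjusted p = 0.37). With WT A and WT D only, the sign turned to 0.02 (95% confidence interval -0.18 to 0.21, limma adjusted p = 0.96).

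**Figure D2:**
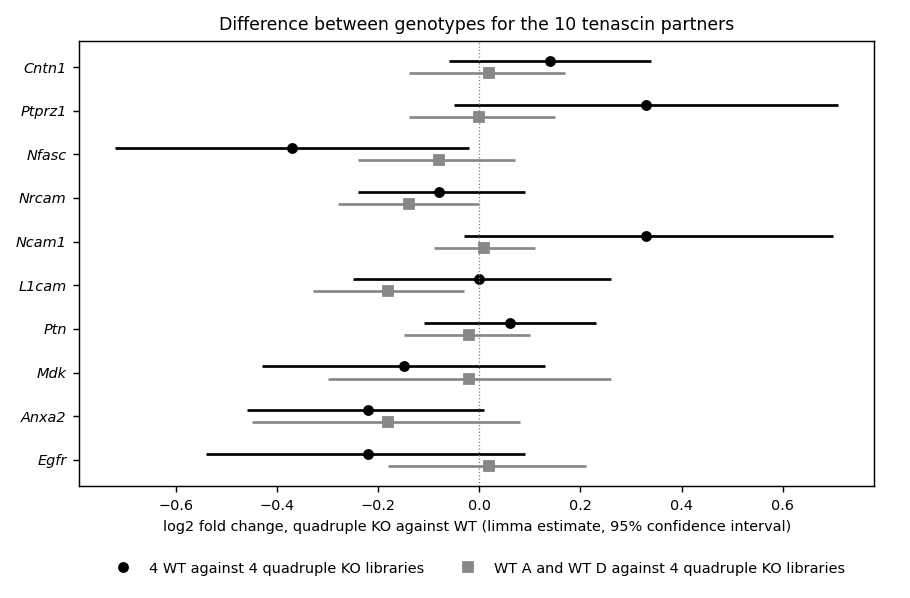
Log2 fold change of quadruple KO against WT (x axis) for each member, with 95% confidence intervals, from all 8 libraries (black circles) and without WT B and WT C (grey squares). The estimates of Ptprz1 and Ncam1 move from 0.33 to 0.00 and 0.01, and that of Nfasc from -0.37 to -0.08.

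WT B and WT C lay on the same side of both WT A and WT D in 10 of 10 members, above in Nfasc, Egfr, Mdk and Anxa2 and below in the other 6. Of all genes tested 70.8% did so. The mean of WT B and WT C was 150% of that of WT A and WT D for Nfasc, 139% for Egfr, 120% for Mdk and 106% for Anxa2. It was 91.3% for Nrcam, 88.9% for Ptn, 83.8% for Cntn1, 77.3% for L1cam, 64.2% for Ptprz1 and 63.8% for Ncam1. These shifts were larger than the difference between quadruple KO and WT A and WT D in Cntn1, Ptprz1, Nfasc, Ncam1, L1cam, Ptn, Mdk and Egfr. Over 14313 protein-coding genes, the log2 shift of WT B and WT C against WT A and WT D had a Pearson correlation of 0.32 with exonic GC content, a description across genes of the same libraries. Nfasc, with a GC content of 54.0%, shifted by 0.58 on the log2 scale and Ptprz1, at 45.0%, by -0.64, but Egfr, at 44.4%, shifted by 0.48 and L1cam, at 54.0%, by -0.37.

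Levels of cell type markers in the same libraries are given beside these values, and their part in the members' values was not tested. The 8 markers of Mueller glia, the radial glia of the retina, summed to 203404 in WT B and 195988 in WT C and to 143878 to 160685 in the other 6 libraries. The 5 rod markers summed to 1015990 in WT B and 1185217 in WT C and to 1316038 to 1522325 elsewhere. The 8 markers of retinal ganglion cells, whose axons form the optic nerve, summed to 28652 to 31847 in WT and 23960 to 28642 in quadruple KO. These ranges were without overlap only by a narrow margin, since WT B stood at 28652 and KO C at 28642. The 4 astrocyte markers summed to 1461 to 1646 in WT and 1012 to 1570 in quadruple KO. KO A, at 1570, lay within the WT range, and KO B, KO C and KO D, at 1201, 1137 and 1012, lay below it. Of 8 markers of the retinal pigment epithelium 6 were in the table, of which Mueller glia share Rlbp1, and summed to 12313 to 17068 and 13450 to 13824. Those of endothelial cells, 5 of 5, summed to 8772 to 11997 and 10325 to 11920, and those of fibroblasts and sclera, 6 of 7, to 313 to 615 and 246 to 491. No marker of these lists that was in the table was at 0 in any library. Rpe65 and Mlana of the pigment epithelium and Lum of the fibroblasts and sclera were not in the table.

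Compared per kb of exon, the mean WT levels ran from 2156 ± 553 normalized counts per kb for Ncam1 to 45.5 ± 1.97 for Anxa2 (SD, n = 4). Nfasc followed Ncam1 at 641 ± 156, and L1cam at 305 ± 46.0, Cntn1 at 291 ± 35.4 and Nrcam at 285 ± 19.5 came next. By exon length these 3 did not differ beyond their spread, since the libraries of each neighbouring pair overlapped. Ptn stood at 164 ± 11.2, below all of them and above Mdk at 82.6 ± 9.97, Ptprz1 at 81.7 ± 21.1 and Egfr at 67.1 ± 13.9, whose neighbouring libraries overlapped. In quadruple KO the mean levels ran from 2649 ± 52.9 for Ncam1 to 39.1 ± 4.01 for Anxa2. There Cntn1 at 319 ± 12.8 came above L1cam at 303 ± 21.3, with overlap, and Ptprz1 at 99.9 ± 6.04 above Mdk at 73.9 ± 3.18, without overlap. Ptprz1 was also above Mdk in WT A, at 98.3 against 80.3, and in WT D, at 101 against 69.6. It was below Mdk in WT B, at 69.0 against 88.6, and in WT C, at 58.8 against 92.0. Per kb of coding sequence Ncam1 remained first, and Ptn rose to 2454 in WT, where its libraries overlapped with those of Nfasc at 2786. By that length L1cam, at 626 in WT, lay below Nrcam at 1395 and Cntn1 at 1623, without overlap. In quadruple KO, Mdk at 297 then came above Ptprz1 at 270, with overlap.

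**Figure D3:**
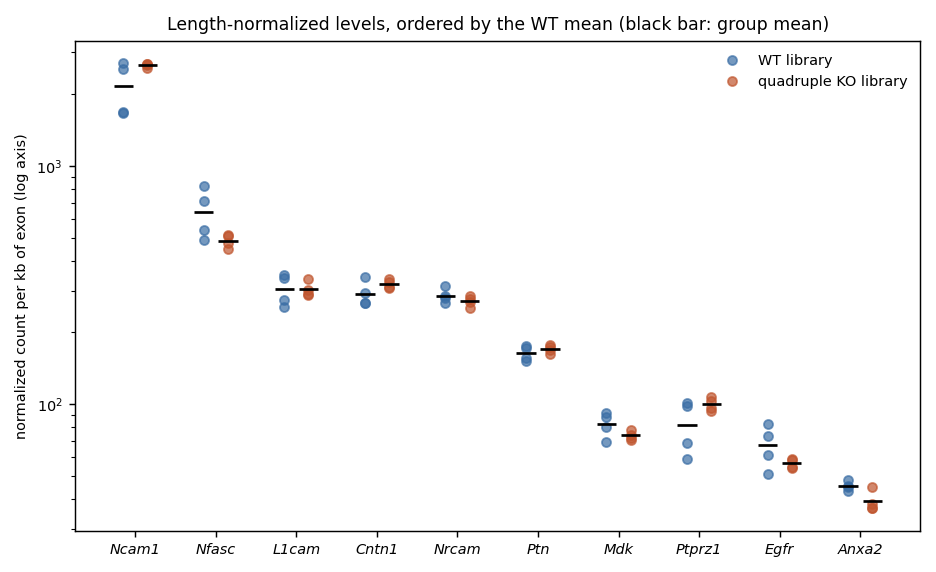
Normalized counts per kb of exon (y axis, log scale) of each member in every WT (blue) and quadruple KO (orange) library, ordered by the WT mean, with group means as black bars. Ncam1 lies highest, and L1cam, Cntn1 and Nrcam form an overlapping group between 257 and 350 in WT.

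Genes of the same families and pathways were read from 10 lists that hold 77 genes, of which 70 were in the table and tested. None of the 70 was called in either direction by limma, with a lowest adjusted p of 0.26, and none without WT B and WT C, with a lowest of 0.23. At an unadjusted p under 0.05 stood 16 of them, or 22.9% against 16.6% of all genes tested, of which 5 were higher and 11 lower in quadruple KO. Without WT B and WT C these were 9, or 12.9% against 11.6%, of which 1 was higher and 8 lower. The genotypes did not overlap in 10, or 14.3% against 9.74%, of which 3 were higher and 7 lower. Their median log2 fold change was -0.05, and -0.07 with WT A and WT D only. Ptprg, Anxa8, Anxa10, Anxa13, Ereg, Epgn and Tnn were not analysed here.

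Among 11 other receptors of pleiotrophin and midkine, 6 had genotypes without overlap, 2 higher and 4 lower in quadruple KO. This was 54.5% of the list, where 9.74% of all genes tested had such genotypes, and 5 of the 11, or 45.5% against 16.6%, had an unadjusted p under 0.05. In the second fit 4 of the 11 did, or 36.4% against 11.6%, where Sdc1 and Sdc2 stood at an unadjusted p of 0.052 and 0.053. The list's median log2 fold change was -0.09, and -0.12 without WT B and WT C. Alk, a receptor tyrosine kinase activated by both ligands, stood at 514, 549, 494 and 472 normalized counts in WT A to D and at 363, 385, 356 and 434 in quadruple KO. All 4 WT libraries lay above all 4 quadruple KO libraries. The log2 fold change was -0.40 (SE 0.10, unadjusted p = 0.0022, limma adjusted p = 0.26), and -0.36 with WT A and WT D only. Ncl, nucleolin, a nucleolar protein that also binds midkine at the cell surface, had the highest WT level per kb in the list and a log2 fold change of -0.05 (limma adjusted p = 0.7), which turned to 0.05 without WT B and WT C. The other 5 without overlap are named here after their values were seen. The heparan sulphate proteoglycans Sdc2 and Sdc3 were higher in quadruple KO, by 0.34 and 0.16 on the log2 scale, and Sdc1, Ptprs and the integrin subunit Itgav were lower, at -0.83, -0.24 and -0.09. Without WT B and WT C these values were 0.12, 0.22, -0.75, -0.12 and -0.12 in the same order. Each had a limma adjusted p of at least 0.3 with all libraries and of at least 0.23 without these, and Sdc1 had a mean of only 25.5 normalized counts in WT.

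The 12 contactins and contactin-associated proteins had a median log2 fold change of 0.06, which turned to -0.02 without WT B and WT C, and none had genotypes without overlap. Cntnap1, the partner of contactin-1 beside the node of Ranvier, had the highest WT level per kb among them and a log2 fold change of -0.11 (limma adjusted p = 0.36), and -0.10 in the second fit. The relatives of L1 and NCAM were Ncam2, at 0.30, and Chl1, at 0.22 on the log2 scale, and both overlapped between genotypes. Both turned in the second fit, to -0.08 for Ncam2 and -0.07 for Chl1. In Ncam2 the WT libraries stood at 1988, 1111, 1117 and 1801 normalized counts, the same split of WT B and WT C from the others as in Ncam1.

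Of 12 ankyrin and spectrin anchors and sodium channel beta subunits, which tie neurofascin to the axonal cytoskeleton and channels, 4 had an unadjusted p under 0.05, all lower in quadruple KO, and 3 did without WT B and WT C, also lower. The list's median log2 fold change was -0.12, and -0.08 in the second fit. Sptbn4, the beta-IV spectrin of the axon initial segment, stood at 2523, 2668, 2725 and 2180 normalized counts in WT A to D and at 2076, 2120, 1927 and 1892 in quadruple KO. Its genotypes did not overlap, with a log2 fold change of -0.33 (limma adjusted p = 0.3) and -0.23 with WT A and WT D only. Sptan1, the alpha spectrin, had the highest WT level per kb in the list and a log2 fold change of -0.13 (limma adjusted p = 0.32), and -0.07 in the second fit.

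The 5 relatives of Ptprz1 tested had a median log2 fold change of 0.02, which turned to -0.07 without WT B and WT C. Among them Ptprs, which binds heparan and chondroitin sulphate proteoglycans, had genotypes without overlap and the highest WT level per kb. It stood at 12971, 14948, 15031 and 12464 normalized counts in WT A to D and at 11852, 11739, 11731 and 11545 in quadruple KO, with a log2 fold change of -0.24 (limma adjusted p = 0.3). WT B and WT C were the highest, and the log2 fold change was -0.12 without them. The 5 substrates of Ptprz1 had a median log2 fold change of -0.08, and Ctnnb1, beta-catenin, with the highest WT level per kb, had -0.08 (limma adjusted p = 0.49). Both were -0.05 in the second fit.

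The 9 annexins and S100a10 tested beside Anxa2 had a median log2 fold change of -0.22, the value of Anxa2 itself, and -0.17 with WT A and WT D only. S100a10, the binding partner of annexin A2, stood at 202, 184, 197 and 217 normalized counts in WT A to D and at 153, 166, 190 and 175 in quadruple KO. The genotypes overlapped through KO C, with a log2 fold change of -0.22 (limma adjusted p = 0.31). In the second fit it was -0.29, with an unadjusted p of 0.037 and a limma adjusted p of 0.4. S100a10 is named here after its values were seen. Anxa4 had genotypes without overlap, with a log2 fold change of -0.43 (limma adjusted p = 0.3) and -0.18 with WT A and WT D only. Anxa5, with the highest WT level per kb, had -0.28 (limma adjusted p = 0.3), and -0.19 in the second fit.

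The 5 ligands of Egfr tested had a median log2 fold change of -0.29, and -0.12 with WT A and WT D only. Btc, betacellulin, with the highest WT level per kb, had -0.17 (limma adjusted p = 0.38). In the second fit Btc had -0.30, with an unadjusted p of 0.021 and a limma adjusted p of 0.35. The 9 other ErbB receptors and the adaptors and inhibitors of Egfr had a median log2 fold change of 0.07 in both fits. Among them Sos1, the exchange factor that links the receptor to Ras, had genotypes without overlap, at 2087, 1560, 1514 and 2092 normalized counts in WT A to D and 2232, 2165, 2205 and 2159 in quadruple KO. Its log2 fold change was 0.29 (limma adjusted p = 0.3), and 0.07 with WT A and WT D only. Lrig1, an inhibitor of Egfr with the highest WT level per kb, had a log2 fold change of 0.00 (limma adjusted p = 0.98), and 0.13 in the second fit. Tnxb, the one other tenascin tested, stood at 305, 292, 308 and 294 in WT A to D and at 274, 273, 226 and 240 in quadruple KO. Its genotypes did not overlap, with a log2 fold change of -0.25 in both fits (limma adjusted p = 0.3 with all libraries).

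**Figure D4:**
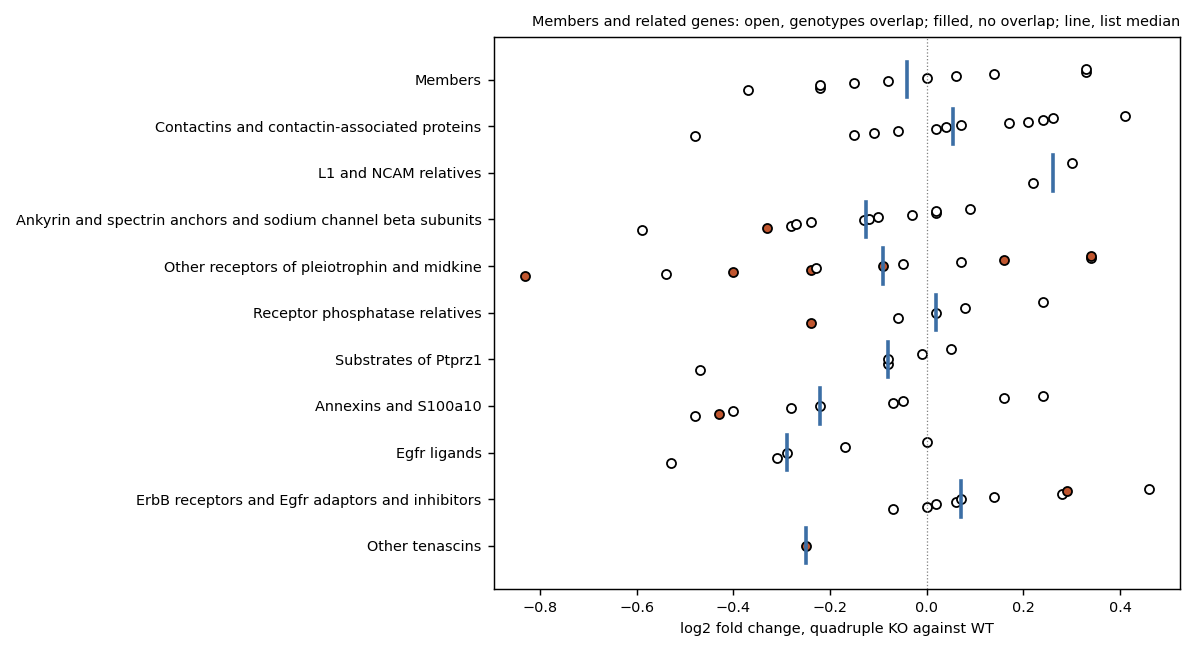
Log2 fold change of quadruple KO against WT (x axis) of the 10 members and of each gene of the 10 lists, with open circles where the genotypes overlap, filled circles where they do not and a blue line at the list's median. No member is filled, and 6 of the 11 other receptors of pleiotrophin and midkine are.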

How the data were processed

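The 4 libraries of WT retinae and 4 libraries of quadruple KO retinae were made from total RNA with a directional kit. Per the submitters' processing notes and the methods, the authors used Trim Galore 0.6.7, STAR 2.7.9a, Salmon 1.5.2 and DESeq2 1.32.0 with GRCm39. The authors deposited normalized counts, estimated counts divided by DESeq2 factors, whose unit depends on those factors. Fold changes and p-values of the authors were deposited beside them and not used. Whole reads could not be recovered (at most 57.4% of low values lay on whole steps, tolerance 0.1 of a step), so limma 3.58.1 (trend) in R 4.3.3 was run on log2(normalized count + 1) for genes with a mean of at least 10, without covariates. Single members were also compared by two-sided exact permutation tests. Positions and lengths came from GENCODE M39, which matched 99.5% of gene identifiers. Alternatives covered scaling, filter, pseudocount, variance model, array weights, a block by letter, WT A and WT D only, each library left out, and coding length. The members, the gene lists and the choice of WT A and WT D were set with earlier results of these data known. From each list were named the gene with the highest WT level per kb and, with a mean of at least 100, the one with the largest log2 fold change among those without overlap. Plots were made with Python 3.11.15 and matplotlib 3.10.9.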

Additional observations from a re-analysis of the deposited data

Results flagged for a closer look

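In 2 of the 48 groups of 4 libraries looked at, 1 library stood far from the other 3 of its genotype by Dixon's test, which flags about 1 in 20 groups by chance. Ncam2 was highest in KO B, at 1890 normalized counts, against 1749 to 1766 in the other quadruple KO libraries. Ncl was lowest in KO B, at 11168 normalized counts, against 11473 to 11525 in the others. No member was among them.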

How the results depend on the processing

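No member and no gene of the lists was called under any of the 20 alternative settings of the fit. The number of all genes called, 77, became 143 with array weights and 51 with the letter as a replicate block. The array weights were 0.164 for WT B and 0.156 for WT C and 0.964 to 2.86 for the others. That setting therefore counts WT B and WT C little, as the fit with WT A and WT D only leaves them out. The cause of the changed numbers was not tested. Same-lettered libraries correlated at -0.11 to 0.10 in their deviations, and for 1 of 4 letters the best match was its own. These values show no pairing by letter, and a shared preparation of same-lettered libraries was not tested. Members kept their direction in 190 of 200 fits, but these fits share most of their libraries, so the count does not measure stability. A kept direction could hold little size, as in Ptprz1 at 0.003 and Ncam1 at 0.01 with WT A and WT D only. With array weights, Cntn1 turned to -0.01, L1cam to -0.13 and Ptn to -0.02, and median-ratio rescaling gave -0.0008 for L1cam. With WT A and WT D only, L1cam was -0.18, Ptn -0.02 and Egfr 0.02. Leaving out 1 library gave L1cam between -0.07 (without WT C) and 0.08 (without WT D), with -0.04 without WT B and without KO B. The lowest adjusted p of a member by limma, 0.079 for Nfasc, came without WT D, where Ncam1 had 0.084, Egfr 0.086 and Ptprz1 0.099. The number of members at an unadjusted p under 0.05 was 4 without WT A and without WT D, and 0 without WT B, WT C, KO A, KO C or KO D. By coding length every level per kb was higher by construction, since the coding length of each member is shorter than its exon length. The depth is unknown, so no limit is given for low counts.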
